A study of Mus musculus with 1279 samples.

Results

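The 3 genes described here, Atp1b1, Atp1b2 and Atp1b3, encode the beta subunits of the sodium and potassium pump (Na,K-ATPase). They were picked by name from the 46517 mouse genes of a single-cell count table of the heart, with earlier results of the same table known, so their own levels and folds are given as a description without a test. Atp1b1 (ENSMUSG00000026576) lies on chromosome 1 from 164437109 to 164458355 of GRCm38. Atp1b2 (ENSMUSG00000041329) lies on chromosome 11 from 69599736 to 69605942. Atp1b3 (ENSMUSG00000032412) lies on chromosome 9 from 96332655 to 96364442. All 3 are on the minus strand and all 3 passed the filter on low counts in each of the 4 comparisons below.

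The pump uses ATP to carry sodium out of the cell and potassium in, and it keeps the gradients on which membrane potential, cell volume and sodium-coupled transport rest. Each pump pairs a catalytic alpha subunit, which hydrolyses ATP and binds cardiac glycosides, with a glycosylated beta subunit that brings the alpha subunit to the plasma membrane and tunes its affinity for ions. Small FXYD proteins can join the complex and modulate it. In the nervous system the Atp1b2 product is also known as an adhesion molecule on glia.

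Single cells were sorted by fluorescence from dissociated hearts of male mice aged 10 to 20 weeks and sequenced by Smart-seq2, a full-length method that here gave read counts without molecular barcodes. The 1279 cells came from 4 strains. C57BL6 mice, which carry no reporter, gave 581 cells sorted with antibodies. PdgfrbGFP gave 364 cells and the Cspg4dsRED and Acta2GFP mice the rest, each of these strains carrying a transgene in which the promoter of the named gene drives a fluorescent protein that was used to enrich cells. Endothelial cells were counter-selected with an antibody to CD31. The labels assign each cell to 1 of 8 clusters, which the authors had made from the same counts. Each reporter strain was on 1 plate and C57BL6 was on 3, so strain, reporter and plate cannot be told apart there, and the number of animals behind each plate is not given in the labels.

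Counts were summed over the cells of each strain and cluster, and the 27 sums of 3 or more cells are used below. Counts per cell ranged from 46268 to 1302400 with a median of 274504. Markers named the sides. Clusters 1 to 5 (926 cells) had 10590 to 14489 CPM (counts scaled by each sum's total count) summed over the fibroblast genes Pdgfra, Dcn, Lum, Col1a1 and Col1a2. Of the 353 cells of clusters 6 to 8, clusters 7 and 8 had 5239 to 11764 CPM over the mural genes Notch3, Rgs5, Mcam, Des and Cspg4. Cluster 7 was led by smooth muscle genes (10670 to 15717 CPM over Acta2, Myh11, Tagln and Cnn1) and cluster 8 by pericyte genes (6942 to 23596 CPM over Kcnj8, Abcc9, Rgs5 and Vtn). Cluster 6 shared the smooth muscle genes (9946 to 13384 CPM) but had 781 to 2446 CPM of the mural genes and 3108 to 12491 CPM of the fibroblast genes, the highest of these in the 3 cells of C57BL6. The fibroblast list was above the mural list there in all 3 strains, so cluster 6 is put on the mural side by its smooth muscle genes alone. Levels within a gene are in CPM, and levels between genes are in RPKM, the CPM per kilobase of the gene's merged exons.

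The sequence just before the transcription start is shown for the beta genes with an entry in the RefSeq promoter table (GRCm38.p6), since these genes are compared throughout. Capitals mark matches on either strand to GGGCGG, known as the GC box, to CCAAT, to the TATA box letters TATAAA or to the shorter TATA core TATATA. No marked matches overlap. For Atp1b3 it is the outer of 2 listed starts. The Atp1b1 window is chr1:164458356-164458605 and the Atp1b3 window is chr9:96364432-96364681, both on the minus strand and 250 bases long, and both are written 5′ to 3′ on the strand of the gene.
Atp1b1: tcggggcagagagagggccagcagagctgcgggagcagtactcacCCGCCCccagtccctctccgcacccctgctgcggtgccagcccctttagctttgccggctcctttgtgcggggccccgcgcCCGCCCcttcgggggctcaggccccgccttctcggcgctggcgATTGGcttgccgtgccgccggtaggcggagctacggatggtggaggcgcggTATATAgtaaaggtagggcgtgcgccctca
Atp1b3: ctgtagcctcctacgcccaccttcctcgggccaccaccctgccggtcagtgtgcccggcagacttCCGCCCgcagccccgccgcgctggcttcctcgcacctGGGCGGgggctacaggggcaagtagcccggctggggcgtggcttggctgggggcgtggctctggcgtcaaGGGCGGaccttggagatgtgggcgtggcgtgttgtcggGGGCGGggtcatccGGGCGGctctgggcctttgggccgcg
The Atp1b1 window held 2 GC boxes, 1 CCAAT and 1 TATATA. This Atp1b3 window held 5 GC boxes and none of the other motifs. The table gives Atp1b3 a second start, whose window (chr9:96363716-96363965) held none of the motifs and is not printed. Over the 32851 promoter windows of the same length, 32.7% held a GC box, 33.8% a CCAAT, 12.4% a TATAAA and 5.25% a TATATA. GC content was 70.4% for Atp1b1 and 73.6% and 76.8% for the 2 Atp1b3 windows, against a median of 52.4%. These are matches of letters and no binding was measured.

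Atp1b2 separated the mural clusters 7 and 8 from every other cluster. In cluster 7 its level was 2760.3 CPM for PdgfrbGFP, 1443 for Cspg4dsRED and 1711 for Acta2GFP. In cluster 8, C57BL6 had 1429 CPM, PdgfrbGFP 1919.6, Cspg4dsRED 1679 and Acta2GFP 699. The means over strains were 1971 ± 696 CPM (SD, n = 3) in cluster 7 and 1432 ± 528 (SD, n = 4) in cluster 8, and the ranges of the 2 clusters overlapped. The cardiomyocyte markers were Myh6, Actc1, Tnnt2, Tnni3, Myl2, Myl3, Ttn, Nppa and Pln. They summed to 1350 to 2016 CPM in cluster 7. The paper reports Actc1 among genes enriched in a population of heart smooth muscle cells, so this sum is not particular to cardiomyocytes. Its part in the Atp1b2 levels was not tested. Cluster 6 stood apart from clusters 7 and 8. Its levels were 52.9 CPM (C57BL6), 144.3 (Cspg4dsRED) and 335 (Acta2GFP), and the highest of these was below the lowest value of cluster 8. This was the only pair of neighbours in the order of clusters, over all 3 genes, whose ranges did not overlap. Below it came cluster 1 at 142.98 ± 39.6 CPM (n = 4) and cluster 3 at 119.4 ± 97.8 (n = 3), where 177.9 CPM in C57BL6 and 173.7 in Acta2GFP stood against 6.48 in the 7 cells of PdgfrbGFP. Clusters 5, 4 and 2 were lowest, at 35.6, 27.2 and 10.7 CPM, in that order.

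Atp1b3 had the opposite orientation, with its highest level in cluster 1 and its lowest in cluster 7. In cluster 1 C57BL6 had 797 CPM, PdgfrbGFP 379, Cspg4dsRED 617 and Acta2GFP 485. The other fibroblast clusters held 340.4 CPM (cluster 5, n = 2), 317 ± 49.1 (cluster 2, n = 4), 283.7 ± 59.1 (cluster 4, n = 4) and 228.2 ± 18.2 (cluster 3, n = 3). Of clusters 6 to 8, cluster 6 had 257.003 ± 134.9 CPM (n = 3) and cluster 8 had 206.8 ± 53.3 (n = 4). In cluster 7 it was 124.2 CPM in Cspg4dsRED and 152.3 in Acta2GFP, but 1.96 CPM in PdgfrbGFP, a sum of 9 cells with 4 counts of the gene. Neighbouring clusters in this order overlapped in every case.

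Atp1b1 was highest in cluster 1, with 200.8 CPM for C57BL6, 221.98 for PdgfrbGFP, 201.1 for Cspg4dsRED and 411 for Acta2GFP. Cluster 6 followed at 171.4 ± 106.9 CPM (n = 3), cluster 8 at 140.1 ± 38.9 (n = 4) and cluster 3 at 123.8 ± 69.5 (n = 3). Cluster 2 was the lowest at 4.10 ± 3.21 CPM (n = 4), and in Cspg4dsRED its 8 cells held no Atp1b1 count. Clusters 7, 5 and 4 had means of 35.9, 35.6 and 20.1 CPM, and cluster 7 ran from 0.491 CPM in PdgfrbGFP to 80.9 in Cspg4dsRED. Every neighbour in the order overlapped the next. Few cells carried some of these sums. In cluster 8 of Acta2GFP 1 cell of 15 held 89.5% of the Atp1b1 counts, and in cluster 1 of C57BL6 1 cell of 19 held 80.7% of the Atp1b2 counts. In cluster 6, both C57BL6 and Acta2GFP gave 3 cells, and a single cell held 76.8% or more of the counts of any given beta gene. In C57BL6 these were different cells for Atp1b1 and Atp1b2, since no cell there had counts of both.

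**Figure D1:**
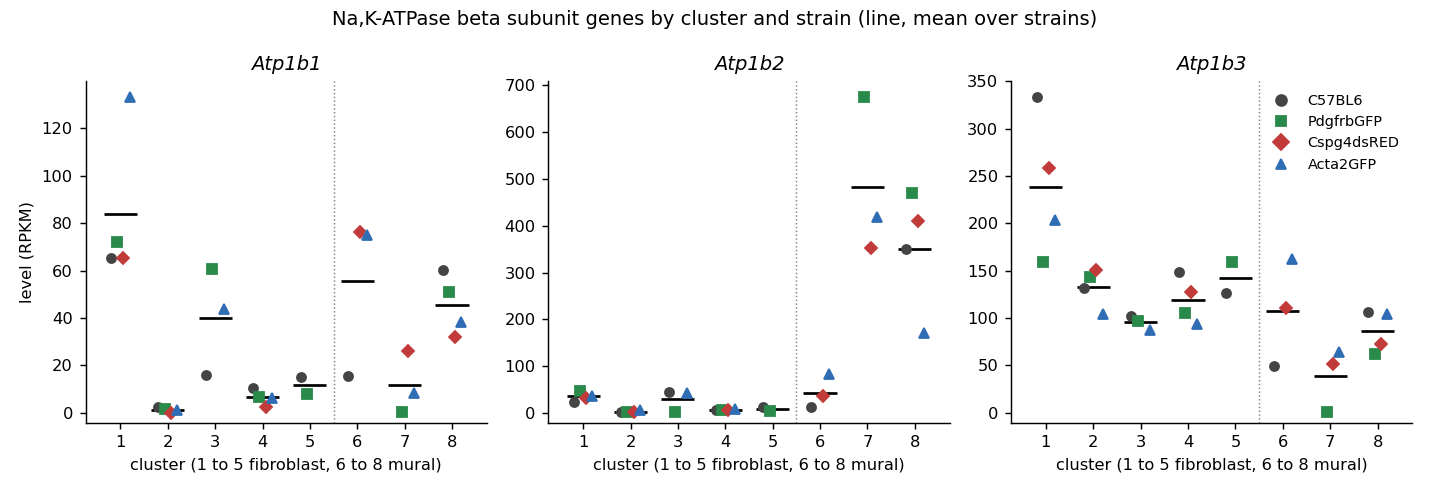
Level of the 3 beta subunit genes (RPKM, linear axes that differ between panels) in each cluster, 1 point per strain and a line at the mean over strains. Atp1b2 stands at 171.1 to 676 RPKM in clusters 7 and 8 and at 82.1 RPKM or less elsewhere, while Atp1b3 and Atp1b1 are highest in cluster 1.

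Put on the per-length scale, these levels gave a different leading beta gene on each side. Atp1b3 made up 58.1 to 96.8% of the summed beta RPKM in the means of the 5 fibroblast clusters. It was 96.8% ± 2.69 (SD, n = 4) in cluster 2, 89.8% ± 2.40 (n = 4) in cluster 4 and 87.3% ± 7.37 (n = 2) in cluster 5. Clusters 1 and 3 were more mixed, with 65.8% ± 11.8 (n = 4) and 58.1% ± 6.93 (n = 3), and mean shares of Atp1b1 of 23.9% and 24.4%. In cluster 3 the Atp1b1 share was 9.90% in C57BL6, 37.996% in the 7 cells of PdgfrbGFP and 25.3% in Acta2GFP, and the Atp1b2 share 26.96%, 0.993% and 24.5%. Without PdgfrbGFP the means there were 17.6% for Atp1b1 and 25.7% for Atp1b2. Atp1b2 took 81.9 to 99.9% of the sum in cluster 7 (n = 3) and 70.6% ± 12.2 (n = 4) in cluster 8. Its share in cluster 8 ran from 54.5% in Acta2GFP to 80.6% in PdgfrbGFP, so that it led in all 4 strains. Cluster 6 had the makeup of clusters 1 and 3 rather than of clusters 7 and 8, with 54.7% ± 7.63 Atp1b3, 25.9% ± 7.51 Atp1b1 and 19.4% ± 5.47 Atp1b2 (n = 3). The summed beta level was 533 ± 127.9 RPKM in cluster 7, 483 ± 116.6 in cluster 8 and 357 ± 59.9 in cluster 1. In clusters 2 to 5 it was 131.9 to 164.9 RPKM in the mean. Cluster 6 spanned 78.1 to 320 RPKM over its 3 strains.

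**Figure D2:**
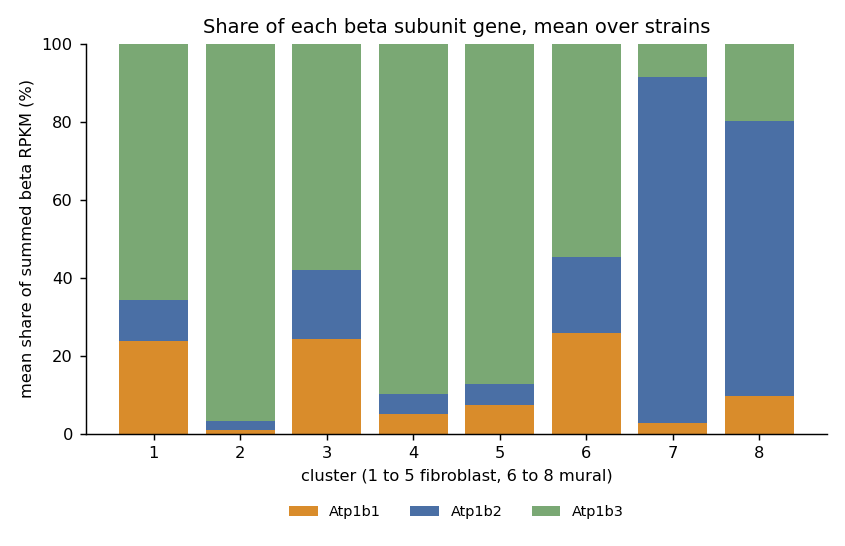
Mean share over strains (percent of summed RPKM) of each beta gene in clusters 1 to 8, as stacked bars from 0 to 100%. Atp1b2 fills 70.6% of the bar in cluster 8 and more in cluster 7, and Atp1b3 the larger part of the bar in all other clusters.

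The leading gene was also counted cell by cell. Of cells with at least 1 beta count, Atp1b2 had the highest RPKM in 92.4% of cluster 7 and 84.1% of cluster 8. Atp1b3 led in 86.6% of cluster 2, 87.9% of cluster 4, 78.9% of cluster 5, 69.1% of cluster 1, 62.9% of cluster 3 and 56.4% of cluster 6. In cluster 3 the next leading gene by cells was Atp1b2 (29.9%), with Atp1b1 at 7.22%, and in Acta2GFP it was Atp1b2 that led most often (7 of 14 cells). Atp1b2 had a count in 99.2% of the cells of cluster 7 and 97.96% of those of cluster 8. With cells brought down to 50000 counts apiece, 2 shallower ones being dropped, the expected shares were 98.7% and 93.4%. Its spread between cells differed in the 2 clusters. The middle 80% of cluster 7 cells lay between 642 and 2788 CPM, and that of cluster 8 between 25.4 and 3677 CPM. Cluster 8 was also sequenced less deeply, with a median of 167874 counts per cell against 243989, and the part of depth in that spread was not tested. Atp1b3 was found in 66.3 to 89.7% of cells in every cluster before thinning and in 44.01 to 85.4% after it. Atp1b1 was found in 22.3 to 69.2% of cells, most often in clusters 6 and 1. Cells with all 3 beta genes made up 58.97% of cluster 6 (23 of 39) and 54.3% of cluster 1 (38 of 70), against 10.3% of cluster 5, all without thinning. After thinning, cells with both Atp1b1 and Atp1b2 were expected at 50.5% in cluster 6, 30.7% in cluster 1 and 3.14% in cluster 5. The unthinned share with all 3 genes differed between strains, at 21.1% in C57BL6 and 80.8% in Acta2GFP within cluster 1. Within C57BL6 it was 7.07% in cluster 5, and Acta2GFP gave 2 cells there.

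The first comparison set fibroblast against mural cells in all 4 strains. The main fit, here and below, had no term for strain, so its folds, SE and p-values do not use the pairing by strain. Atp1b2 was 54.9, 36.8, 62.4 and 73.7 CPM in fibroblasts of C57BL6, PdgfrbGFP, Cspg4dsRED and Acta2GFP, and 1288, 2003, 1091 and 1256 CPM in the mural cells of the same strains. The edgeR log2 fold of fibroblast against mural was -4.68 ± 0.35 (SE, n = 4 strains). Atp1b3 was 285.1 to 347 CPM in fibroblasts and 134.1 to 231.9 CPM in mural cells, with a log2 fold of 0.79 ± 0.25, higher in fibroblasts in 4 of 4 strains. Neither of these 2 genes overlapped between sides. For scale, 16.9% of the 11027 genes with a mean of 10 CPM or more did not overlap. Atp1b1 was lower in fibroblasts in 3 strains (39.2, 46.2 and 18.95 CPM against 164.8, 141.1 and 131.5) and higher in Acta2GFP (112.7 against 74.9 CPM). Cluster 1 gave 26 of the 120 fibroblasts of Acta2GFP, at 411 CPM of Atp1b1, and 19 of the 544 of C57BL6. In clusters 2 to 5 without cluster 1, Atp1b1 was 33.2 CPM or less in every strain. The part of this makeup in the Atp1b1 fold was not tested. The Atp1b1 log2 fold was -1.27 ± 0.51, and -2.05 without Acta2GFP. With cluster 6 left out of the mural side, a step chosen after the values were seen, the log2 folds were -4.84 for Atp1b2, 0.87 for Atp1b3 and -1.14 for Atp1b1. Cardiomyocyte markers moved with this comparison, at 10.2 to 356 CPM in clusters 1 to 5, 3.92 to 1537 in cluster 6, 1350 to 2016 in cluster 7 and 165.9 to 391 in cluster 8, and their part in the folds was not tested.

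The second comparison set pericyte-led cluster 8 against smooth muscle-led cluster 7 in the 3 strains with both. Atp1b1 was higher in cluster 8 in 3 of 3 strains, at 156.6 against 0.491 CPM for PdgfrbGFP, 98.996 against 80.9 for Cspg4dsRED and 118.6 against 26.3 for Acta2GFP. Its log2 fold was 1.81 ± 1.30 (SE, n = 3) with all strains, 1.06 without PdgfrbGFP, whose cluster 7 is the sum of 9 cells, and 3.38 without Cspg4dsRED. The Acta2GFP difference rested on 1 cell of cluster 8. With the cell richest in Atp1b1 left out of each sum, a step chosen after the values were seen, the Acta2GFP levels were 13.76 CPM in cluster 8 and 13.70 in cluster 7. The median Atp1b1 level over cells was 0 CPM in both clusters. Atp1b3 had a log2 fold of 1.07 ± 1.08, 0.67 without PdgfrbGFP and 1.28 without Acta2GFP. Atp1b2 had a log2 fold of -0.59 ± 0.46 and was higher in cluster 8 in 1 of 3 strains. Of the 3 genes only Atp1b1 had ranges that did not overlap, as was the case for 15.9% of genes. The median log2 fold of all genes was 0.18 here, and 0.04 with DESeq2 size factors. Other marker sums also differed between these clusters. Cardiomyocyte markers summed to 1350 to 2016 CPM in cluster 7 and to 165.9 to 391 in cluster 8. Pericyte markers in cluster 7 reached 8974 CPM in PdgfrbGFP, against 2486 and 2859 in the other 2 strains. The Acta2GFP sum of cluster 8 stood apart from those of the other strains, with 4033 CPM of smooth muscle markers against 201.1 to 1170, 3334 of fibroblast markers against 959.5 to 1370 and 6942 of pericyte markers against 18865 to 23596. It was also the sum of cluster 8 with the lowest Atp1b2 level and share. The part of these marker differences in the levels was not tested.

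The third comparison set cluster 6 against clusters 7 and 8 in C57BL6, Cspg4dsRED and Acta2GFP. The second side differed in makeup. It was 33 cells of cluster 8 and 1 of cluster 7 in C57BL6, 29 and 75 in Cspg4dsRED, and 15 and 33 in Acta2GFP. Atp1b2 was lower in cluster 6 in 3 of 3 strains, with 52.9, 144.3 and 335 CPM against 1453, 1507 and 1347. The log2 fold was -2.81 ± 0.69 (SE, n = 3), and -3.90 without Acta2GFP. It was the 1 beta gene whose ranges did not overlap, as in 18.4% of genes. The median log2 fold of all genes was -0.32, and -0.17 with DESeq2 size factors. Atp1b1 (0.82 ± 0.97) and Atp1b3 (0.60 ± 0.77) were higher in cluster 6 in Cspg4dsRED and Acta2GFP and lower in C57BL6. Cardiomyocyte markers in cluster 6 summed to 753.6 and 1537 CPM in those 2 strains and to 3.92 in C57BL6. Fibroblast markers were 3108 to 12491 CPM in cluster 6, against 309 to 777 in cluster 7 and 959.5 to 3334 in cluster 8. Endothelial markers in cluster 6 were highest in Acta2GFP, at 277.5 CPM, and were 54.4 CPM or less in clusters 7 and 8. The part of these marker differences in the levels was not tested. Without Acta2GFP the log2 fold of Atp1b3 was -0.01, and without C57BL6 it was 1.18. Without Acta2GFP that of Atp1b1 was 0.12, and without C57BL6 it was 1.84.

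The fourth comparison set cluster 1 against the other fibroblasts, pooled over clusters 2 to 5, in all 4 strains. All 3 beta genes were higher in cluster 1 than in this pool in 4 of 4 strains. Atp1b1 differed most, with 200.8, 221.98, 201.1 and 411 CPM against 33.2, 24.2, 3.798 and 29.3 and a log2 fold of 3.51 ± 0.62 (SE, n = 4). Against cluster 3 alone it was 221.98 against 186.9 CPM in PdgfrbGFP. Atp1b2 had 98.7 to 194.5 CPM against 16.999 to 56.5 and a log2 fold of 1.70 ± 0.49. Against cluster 3 alone Atp1b2 was lower in cluster 1 in C57BL6 (98.7 against 177.9 CPM) and in Acta2GFP (145.4 against 173.7). In PdgfrbGFP it was higher (194.5 against 6.48). Without the cell richest in Atp1b2, its level in cluster 1 of C57BL6 was 21.1 CPM, where clusters 2 to 5 of that strain had 53.3. Atp1b3 had 379 to 797 CPM against 229.02 to 327 and a log2 fold of 0.92 ± 0.29. None of the 3 overlapped, against 9.78% of genes. In Cspg4dsRED cluster 1 is the sum of 3 cells. Markers of other cell types also moved with this comparison. In cluster 1 the mean summed level was 351 CPM for mural markers, 341 for pericyte markers, 184.9 for cardiomyocyte markers and 83.1 for endothelial markers, above the means of clusters 2 to 5 in each case. Within strains this did not hold throughout. Pericyte markers in cluster 1 were below cluster 3 in C57BL6 (181.02 against 238.6 CPM) and in PdgfrbGFP (171.9 against 258.6). Endothelial markers were highest in cluster 1 only in PdgfrbGFP. Smooth muscle markers averaged 457 CPM, below the 823 of cluster 3. Immune markers were low at 2.66 CPM. Acta2GFP, with the highest Atp1b1 level, had 729.8 CPM of mural, 985 of smooth muscle and 849 of pericyte markers in cluster 1. The part of these marker differences in the beta gene levels was not tested.

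**Figure D3:**
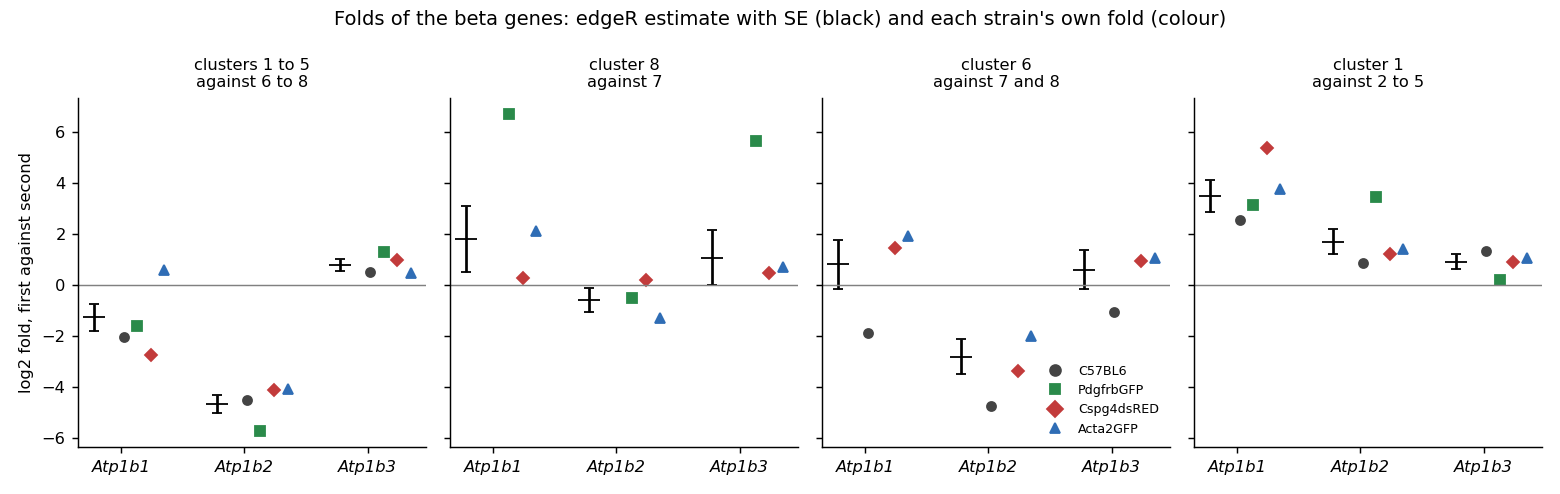
log2 fold of each beta gene in the 4 comparisons, first group against second. The black line and bar are the edgeR estimate and its SE, and the coloured points are each strain's own fold on log2(CPM + 1). Atp1b2 lies between -5.73 and -4.07 in the first panel in every strain, and all points of the cluster 1 panel are above 0.

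Beside the members, 5 fixed lists around the pump held 32 genes. They were FXYD and Nkain genes, other beta and H,K-ATPase subunits, sodium or potassium coupled transporters and pump regulators. Of the listed genes, 22 could be tested between fibroblasts and mural cells. Of these, 4 were higher in fibroblasts and 2 were higher in mural cells at an adjusted p under 0.05 in edgeR, beside 5.93% of all 15117 genes called, 3.47% higher and 2.45% lower in fibroblasts. The lists were chosen with earlier results known, and the clusters were made from the same counts. The adjusted p-values of listed genes thus describe these data and are not independent tests. The median log2 fold was 0.14 for the listed genes and -0.02 for all genes. The FXYD genes held 4 of the 6 calls. Fxyd6 (phosphohippolin) was 373 to 526 CPM in fibroblasts and 19.5 to 106.2 in mural cells, a log2 fold of 3.12 ± 0.49 with an adjusted p of 0.00487. Fxyd3 (Mat-8) was 21.4 to 36.5 CPM against 0.389 to 0.579, a log2 fold of 5.96 ± 0.73 (adjusted p = 0.00135). Fxyd5 (dysadherin) was 282.8 to 368 against 74.997 to 165.04 CPM, a log2 fold of 1.43 ± 0.34 (adjusted p = 0.0338). Fxyd2, the gamma subunit of the kidney pump, was the 1 FXYD gene called higher in mural cells, with 5.80 to 149.6 CPM against 2.46 to 6.20 and a log2 fold of -4.07 ± 0.99 (adjusted p = 0.0393). Its call was lost with strain as a replicate block, at an adjusted p of 0.114. Fxyd2 was highest in cluster 8, at 175.02, 89.1, 80.1 and 17.2 CPM in C57BL6, PdgfrbGFP, Cspg4dsRED and Acta2GFP. The low Acta2GFP sum is the one whose pericyte markers were low and whose smooth muscle and fibroblast markers were high. Fxyd2 was 0.98 CPM or less in clusters 6 and 7. Fxyd1 (phospholemman), the FXYD protein of heart muscle, was 294 CPM in fibroblasts and 282.6 in mural cells (adjusted p = 0.952).

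Outside the FXYD family, Slc12a2, the sodium, potassium and chloride cotransporter, was higher in mural cells (log2 fold -4.08 ± 0.75, adjusted p = 0.0106). With strain as a replicate block its adjusted p was 0.051. It too was highest in cluster 8, where C57BL6, PdgfrbGFP and Cspg4dsRED had 179.6, 121.8 and 386 CPM and Acta2GFP, the same sum that stood apart by its markers, had 10.0. Sgk1, a kinase that raises sodium transport, was higher in fibroblasts (log2 fold 1.65 ± 0.42, adjusted p = 0.0467). Its level did not split by side, since cluster 6 had a mean of 136.9 CPM, above the 45.1 of cluster 3 and the 88.8 of cluster 4, and clusters 7 and 8 had 23.6 and 36.3. Without cluster 6 on the mural side the call was lost, at a log2 fold of 1.93 and an adjusted p of 0.106 in edgeR. The calls of Fxyd3 and Fxyd6 held when any 1 strain was left out. Those of Fxyd2 (adjusted p up to 0.246), Fxyd5 (0.138) and Sgk1 (0.189) were lost without any 1 strain, and that of Slc12a2 without C57BL6, PdgfrbGFP or Cspg4dsRED (0.0755). That of Sgk1 was also lost with plates as units (0.0506), with DESeq2 size factors (0.0543) and without a filter on low counts (0.0772), and that of Fxyd5 without the filter (0.0626). The 4 genes of other beta and H,K-ATPase subunits (Atp1b4, Atp4a, Atp4b, Atp12a) were too low to test, with no mean above 1.17 CPM in any cluster.

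The listed genes gave few calls in the other comparisons. Between clusters 8 and 7, edgeR called 0 of 19 tested genes, beside 0.194% of all genes, while the unadjusted p was under 0.05 for 6, beside 6.88% of all genes, and DESeq2 called 3 (Fxyd2, Slc12a7 and Slc8a1), beside 3.2%. Fxyd2 had a log2 fold of 7.69 ± 1.99 (adjusted p = 0.186) and Fxyd1 one of -1.76 ± 0.61 (adjusted p = 0.416). Between cluster 6 and clusters 7 and 8, edgeR called 0 of 20, beside 0.033% of all genes, where DESeq2 called 1 (Fxyd2), beside 2.81%, and 1 gene had an unadjusted p under 0.05, beside 5.74%. Both shares are near those of all genes. Between cluster 1 and clusters 2 to 5, edgeR called 1 of 21, beside 1.33% of all genes in either direction and 0.561% higher in cluster 1. That gene was Fxyd6, which like the 3 beta genes was higher in cluster 1 in 4 of 4 strains (863, 1168, 1333 and 922 CPM against 355, 316, 459 and 356). Its log2 fold was 1.53 ± 0.25 (adjusted p = 0.0124). The call was lost without C57BL6 (adjusted p = 0.104), PdgfrbGFP (0.112) or Acta2GFP (0.147), and with plates as units (log2 fold 1.34, adjusted p = 0.071), and was kept at 0.0438 without Cspg4dsRED, whose cluster 1 is 3 cells.

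**Figure D4:**
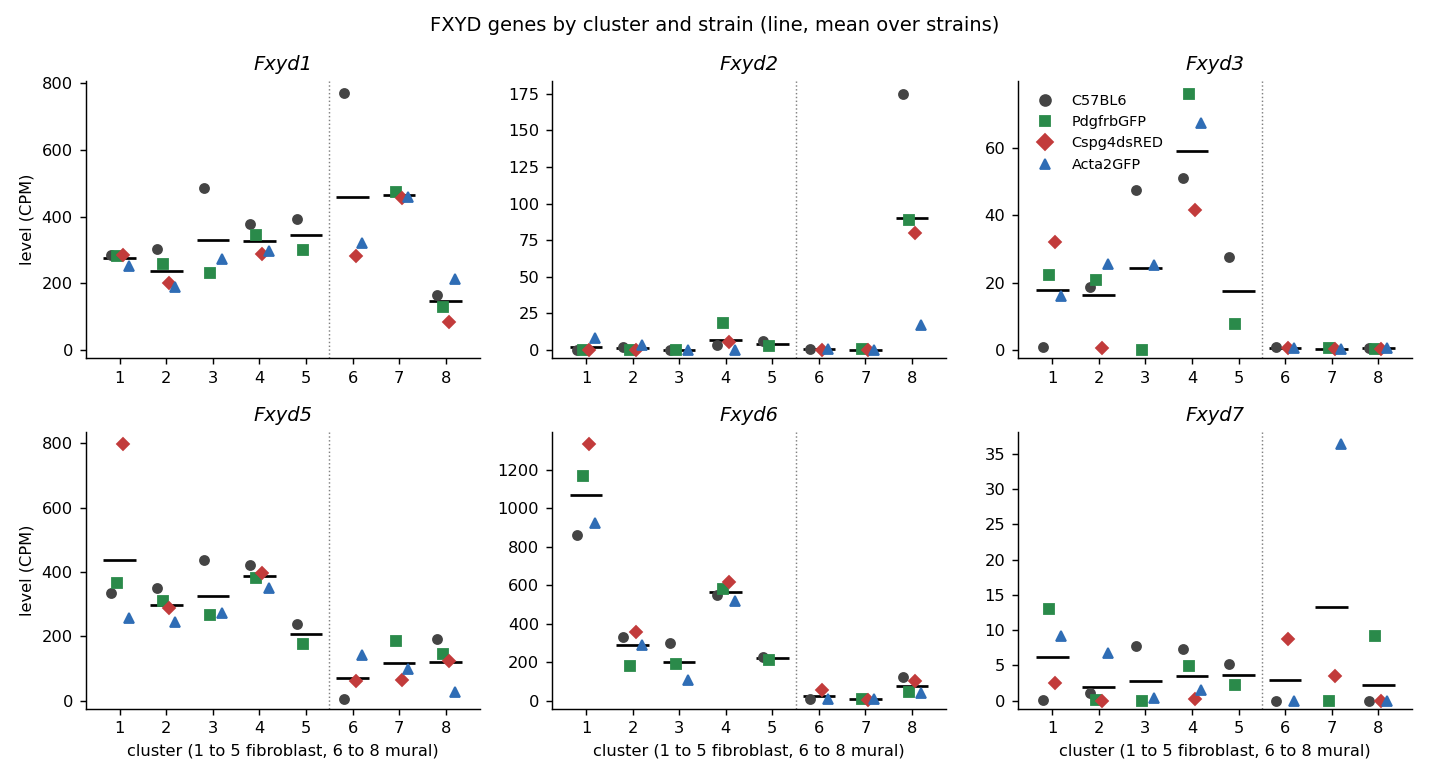
Level (CPM, linear axes that differ between panels) of 6 FXYD genes in each cluster, 1 point per strain and a line at the mean over strains. Fxyd2 is at 17.2 to 175.02 CPM in cluster 8 and near 0 in clusters 6 and 7, and Fxyd6 is highest in cluster 1.

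The share of fibroblasts with a beta gene count was also compared between plates and wells. C57BL6 cells came from 1 plate with 37 mural cells and another with 0. In clusters 2, 4 and 5 pooled, Atp1b2 had a count in 49.8% of cells (40.7 CPM) on the plate with mural cells and in 11.3% of cells (16.7 CPM) on the plate without. Atp1b3 had a count in 90.05% and 68.5% of the same cells, at 308 and 348 CPM. Atp1b1 had a count in 27.6% and 16.9%, at 26.5 and 35.7 CPM. All 3 genes thus had a count less often on the plate without mural cells. Within plates, fibroblast wells of clusters 2 to 5 were split by how many counts of the gene the mural wells sharing their row or column held. Atp1b2 had a count more often in the wells with more such counts nearby on all 4 plates, at 60.9 against 48.6% (C57BL6), 83.7 against 50% (PdgfrbGFP), 90.9 against 58.3% (Cspg4dsRED) and 97.9 against 76.6% (Acta2GFP). Atp1b1 had a count in 31.9 against 27.5%, 35.6 against 17.3%, 27.3 against 25%, and 63.8 against 57.4% of wells, in the same order. The Cspg4dsRED shares are of 11 and 12 wells and hardly differ. Atp1b1 levels were 34.5 against 31.7 CPM, 36.3 against 15.1, 0.783 against 13.1 and 36.03 against 13.6. The Atp1b2 level did not follow on every plate. It was 80.4 against 69.01 CPM in C57BL6 and 74.8 against 32.7 in Acta2GFP, but 21.1 against 21.3 in PdgfrbGFP and 28.7 against 48.4 in Cspg4dsRED. The rank correlation of Atp1b2 over wells was 0.17, 0.52, 0.32 and 0.42 on these plates, over wells (23 of them in Cspg4dsRED and 94 in Acta2GFP) that share a plate and its depth. It was between -0.04 and 0.23 for Atp1b1 and between -0.17 and -0.02 for Atp1b3. In cluster 3 on the plate with 0 mural cells, Atp1b2 was 129.1 CPM, with a count in 31.4% of 35 cells. Spill of RNA or index reads between wells was not tested.

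**Figure D5:**
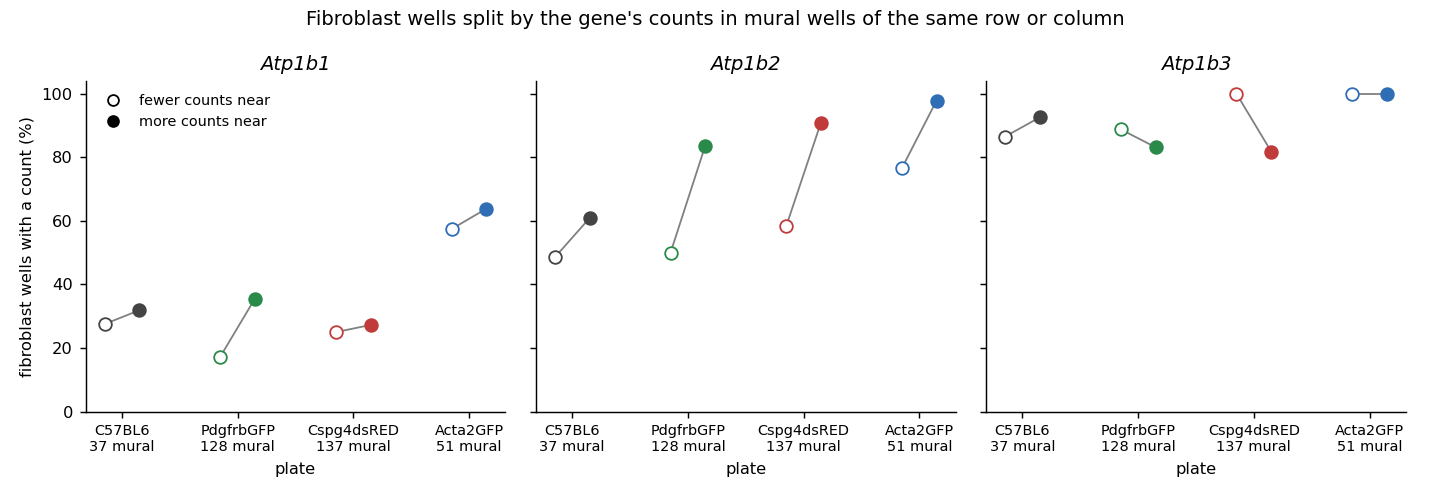
Percent of fibroblast wells (clusters 2 to 5) with a count of each beta gene on 1 plate per strain. Open points are wells with fewer counts of that gene in the mural wells that share their row or column, filled points wells with more, and the label gives the mural wells on the plate. The Atp1b2 and Atp1b1 points rise from open to filled on all 4 plates, while those of Atp1b3 rise on the C57BL6 plate, fall on 2 plates and are level on the Acta2GFP plate. The Atp1b1 rise in Cspg4dsRED is from 25 to 27.3%, over 12 and 11 wells.

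Over the 27 sums, Pearson correlations of log2(CPM + 1) described which of 10326 genes ran most like each member. These sums share plates, depth and clusters, so no p is given. For Atp1b2 they were Bcar3 (r = 0.91), an adaptor protein, Gjc1 (0.87), which encodes connexin 45, Gprc5c (0.85), Olfr558 (0.85) and Rgs5 (0.85), a mural marker. For Atp1b3 they were Ddost (0.91) and Hspa5 (0.90), both of the endoplasmic reticulum, then Arpc1b (0.90), Akap13 (0.90) and Tmem43 (0.89). For Atp1b1 the likeness was weaker, with Cpe (0.79), which encodes carboxypeptidase E, Rtn4rl1 (0.74), Pgrmc1 (0.72), Rab5b (0.71) and Tmem19 (0.69). Among the members r was -0.45 for Atp1b2 with Atp1b3, 0.39 for Atp1b1 with Atp1b2 and 0.40 for Atp1b1 with Atp1b3.

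Reads of 1 gene could in part fit another. Of the 50-base windows in Atp1b1 transcripts, 15.8% also occur in transcripts of the overlapping gene Nme7. Of those in Atp1b3, 9.71% occur in Gm1848, and of those in Atp1b2 none occur elsewhere. No window was shared between the 3 beta genes.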

How the data were processed

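Smart-seq2 libraries of single heart cells were analysed from the deposited read counts per gene. The authors aligned 50-base single reads to GRCm38 with TopHat2 and counted them with featureCounts of Subread, and they removed shallow cells and cells rich in spike-in or mitochondrial reads. The paper also states that doublets were removed with samtools before counting, without saying whether duplicate reads are meant. The deposited counts are not normalised and carry no molecular barcodes, so PCR copies cannot be told apart by barcode. ERCC spike-in rows (1.82% of counts) stayed out of library sizes and tests. No sample column was left unused.

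Strains and clusters were taken from the labels. Counts were summed per strain and cluster over 3 or more cells, and strain was the replicate. Nothing in the labels says that a strain stands for several animals, so the p-values measure the spread between these strain samples. CPM, RPKM from merged exons of GENCODE M21, and shares of summed RPKM were computed in Python 3.11.15 with numpy 2.4.6, pandas 2.3.3 and SciPy 1.17.1. Folds came from the quasi-likelihood test of edgeR 4.0.16 in R 4.3.3, with TMM scaling, filterByExpr at a minimum count of 10, and Benjamini-Hochberg adjustment over all genes at 0.05. The code was tested on simulated data. DESeq2 1.42.0, its size factors, no filter, strain as a replicate block, plates as units, sums of 10 or more cells, leaving out each strain, another gene length and per-cell means were alternatives, and the mural side without cluster 6 was added after the data were seen. Detection was thinned to 50000 counts per cell. Both sides of a comparison share strains and, in the reporter strains, a plate, but the labels name no animals. Same-strain deviations correlated at 0.02 to 0.19.

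The genes named are the 3 beta genes, every gene of 5 fixed lists around the pump and the 5 genes most like each beta gene, the last among genes with a mean of 10 CPM or more. Members and lists were chosen with earlier results of these data known, and the clusters were made from the same counts, so no p is given for a member. The same limits hold for the listed genes, whose p-values are given as a description and not as independent tests. Some other genes and a marker list are not reported here.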

Additional observations from a re-analysis of the deposited data

Results flagged for a closer look

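In groups of 4 strains, a value was marked when its gap to the nearest other strain, divided by the range, passed Dixon's critical value, which chance does in about 1 in 20 groups. Of 30 groups tested, 2 had such a value. Atp1b1 in cluster 1 was 411 CPM in Acta2GFP, while the other 3 strains were at 200.8 to 221.98 CPM. The Atp1b1 share of summed beta RPKM in cluster 4 was 1.84% in Cspg4dsRED, a sum of 13 cells, while the other 3 strains were at 5.70 to 6.30%.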

How the results depend on the processing

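The direction of each beta gene's fold held in all alternatives run except Atp1b3 in cluster 6 against clusters 7 and 8, which ranged from -0.0054 without Acta2GFP to 1.18 without C57BL6. The genes called in edgeR were 5.93% of those tested for fibroblast against mural, 0.194% for cluster 8 against 7, 0.033% for cluster 6 against 7 and 8, and 1.33% for cluster 1 against 2 to 5. With strain as a replicate block these shares were 4.81, 0.691, 0.883 and 0.742%. The blocked fit kept the direction of every beta gene, and the log2 fold of Atp1b1 in cluster 8 against 7 was 2.82. DESeq2 called 12.7, 3.20, 2.81 and 5.22% in the same order (1926, 380, 340 and 689 genes). Without a filter on low counts they were 2.58, 0.855, 0.418 and 0.53% (747 genes against 896 in the first). Plates as units gave 1.92% for cluster 1 against 2 to 5, with 60 genes higher in cluster 1 against 74 with strains, and the other calls lower. With cluster 6 left out of the mural side, added after the data were seen, the first comparison gave 7.7%. DESeq2 size factors gave 0.379% for cluster 8 against 7, with 12 genes higher and 33 lower, against 10 and 13 with TMM. With sums of 10 or more cells that comparison gave 0 calls in edgeR (1514 at an unadjusted p under 0.05), cluster 1 against 2 to 5 gave 0.748%, and cluster 6 against 7 and 8 could not be fitted. Leaving out 1 strain gave 2.66 to 3.91% for fibroblast against mural, 0 to 0.987% for cluster 8 against 7 (0 without PdgfrbGFP), 0 to 0.495% for cluster 6 against 7 and 8 (0 without Cspg4dsRED) and 0.201 to 0.748% for cluster 1 against 2 to 5. The causes were not tested.

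Of the levels, Atp1b3 in cluster 3 was 78.8 RPKM as a mean over cells, and with the longest transcript as length Atp1b3 was 159.05, 114.4 and 170.7 RPKM in clusters 2, 3 and 5. The Atp1b1 share in cluster 6 was 34.3% in the 1 strain with 10 or more cells. Detection depends on depth and on the count asked for. At 10 counts or more, Atp1b1 was found in 48.6, 2.74, 17.9, 9.44 and 7.88% of cells in clusters 1 to 5 and in 18.6 and 18.9% in clusters 7 and 8. Atp1b2 was then found in 31.4, 4.11, 35.7, 6.44, 8.90 and 58.97% in clusters 1 to 6 and 81.6% in cluster 8. Atp1b3 was found in 55.7, 48.2, 69.5, 47.3, 71.8, 42.4 and 23.98% in clusters 2 to 8. The clusters left out of these lists had 64.1% (Atp1b1, cluster 6), 98.3% (Atp1b2, cluster 7) and 82.9% (Atp1b3, cluster 1). With a pseudocount of 10, 3 of the 5 genes most like Atp1b1, 3 of those for Atp1b2 and 4 of those for Atp1b3 were shared.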
